A study of Mus musculus with 19 samples.

Results

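The 46 genes described here make or store fatty acids and cholesterol or control those pathways, and they are read in the obstructed kidneys of WT and CD5L KO mice. They were taken by gene symbol from a fixed list of lipogenesis, SREBP and LXR genes. All 46 were found among the 54532 genes of the count table, and all 46 passed the filter on low counts in every comparison. Grouped by what they do, 6 belong to fatty acid synthesis, 8 are desaturases and elongases, 5 are SREBP factors and their regulators, 6 act in the mevalonate and isoprenoid steps, 10 act in the squalene and sterol steps, 6 serve lipid storage and 5 are LXR factors and targets. The rule uses gene symbols and no measured value, though the list was drawn up with earlier results of these data known.

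Fatty acids are built in the cytosol from citrate-derived acetyl-CoA by the enzymes ACLY, ACC (encoded by Acaca and Acacb) and FASN, and are then desaturated and elongated. Cholesterol is built from acetyl-CoA by way of mevalonate, isoprenoids, squalene and lanosterol. The transcription factors SREBP1 and SREBP2 (encoded by Srebf1 and Srebf2) drive these genes when SCAP escorts them from the endoplasmic reticulum to the Golgi, a step that INSIG1 and INSIG2 hold back when sterols are plentiful. Oxysterols activate the nuclear receptors LXRα and LXRβ (Nr1h3 and Nr1h2), which raise the cholesterol exporters ABCA1 and ABCG1. CD5L, a secreted protein of macrophages also called AIM, is known to be taken up by adipocytes and to inhibit FASN activity.

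RNA was sequenced from the whole obstructed kidney. All mice were males of 8 to 9 weeks on a C57BL/6J background, all with unilateral ureteral obstruction (UUO), in which the left ureter is tied off. They were WT or CD5L KO, the labels giving no allele, and received recombinant CD5L (rCD5L, 0.5 mg per mouse) or PBS by intraperitoneal injection every day. The kidneys were taken on day 12. PBS was given to 5 WT and 4 CD5L KO mice, and rCD5L to 5 of each genotype. All 4 groups are obstructed, so each comparison is between obstructed kidneys. UUO kidneys lose epithelium and gain stroma and leukocytes, and in whole tissue fewer cells of a type and less RNA per cell cannot be told apart.

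The total count per kidney lay between 17917491 and 23847090. Cd5l itself was at 0 counts in all CD5L KO kidneys (a 0 leaves room for up to 3) and had 3 to 15 counts in each WT kidney. Before any comparison, 2 kidneys of the CD5L KO group given rCD5L stood apart. In replicate 4, the summed level of 9 proximal tubule markers was 16679 CPM, against 1097 to 2655 CPM in the 17 kidneys other than replicates 3 and 4. CPM are counts over a library total that is first multiplied by a scaling factor (TMM in edgeR), and that factor was 0.682 for replicate 4 and 0.874 for replicate 3 against 0.968 to 1.07 in the 17 kidneys, so the CPM of these 2 kidneys lie above the values on their plain totals, called plain CPM here. The 8 macrophage markers of replicate 4 summed to 801 CPM against 1939 to 3164 CPM, its 6 lymphocyte markers to 8.89 CPM against 18.3 to 42.1 CPM, and mitochondrially encoded genes took 10.3% of its counts against 2.34% to 4.55%. Its 5 thick ascending limb markers summed to 5593 CPM against 1693 to 3368 CPM, its 6 myofibroblast markers to 1277 CPM against 2361 to 5715 CPM, and its 5 principal cell markers to 433 CPM against 170 to 404 CPM. Replicate 3 kept its proximal tubule markers within the range of the others, at 2562 CPM, and had 0.321% of its counts on the single gene Gm23935, against 0.00765% to 0.0892% in the other 18 kidneys. It lay above the 17 kidneys for principal cell markers (503 CPM) and epididymis markers (60.2 CPM against 7.85 to 39.2 CPM), and just above them for endothelial (715 CPM against 519 to 695 CPM) and myofibroblast markers (5732 CPM). On plain totals replicate 4 still stood apart for proximal tubule (11363 against 1159 to 2655 plain CPM) and macrophage markers (545 against 1876 to 3206), but its principal cell markers (295 against 178 to 391) and the endothelial (625 against 523 to 722) and myofibroblast markers of replicate 3 (5004 against 2417 to 5970) lay within the range of the 17. The main counts and medians that use this group are therefore also given without replicate 4, without replicates 3 and 4, and on plain totals. Those alternatives were chosen after seeing the data.

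Promoter sequences for 37 of the 46 genes were found in the RefSeq table for GRCm38.p6. No entry was used for Scd1, Scd2, Fads1, Fdps, Fdft1, Sqle, Dgat1, Dgat2 and Abcg1. In the 250 bases before each transcription start, on both strands, 3 short motifs were searched: the sterol regulatory element of SREBP in its classical form, TCACNCCAC, the CCAAT box that binds NF-Y, and the GC box GGGCGG that binds Sp1. The CCAAT box was found in 27 of the 37 genes (73.0%), against 37.5% of 27025 genes, and the GC box in 25 (67.6%), against 35.4%. The sterol regulatory element in this form was found in 1 gene (2.70%), against 1.22% of all genes, and that gene was Hmgcs1. The 27025 genes are all those of the promoter table, expressed in the kidney or not, while the members all passed the filter on low counts. The shares therefore compare unlike sets, and a gene with several listed promoters counts if any of them matches. These are matches of letters and are not measured binding sites.

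The 250 bases before the start are printed for 6 genes, 4 because their RNA differed between CD5L KO and WT mice given PBS (Msmo1, Plin2, Elovl5, Lpin1) 1 because it holds the sterol element (Hmgcs1) and 1 because its RNA in replicate 4 lay far above that in the other kidneys (Cyp51). Capitals mark the motif matches on either strand, so that CCAAT also appears as ATTGG and GGGCGG as CCGCCC.
Msmo1 (chr8:64733579-64733828, minus strand): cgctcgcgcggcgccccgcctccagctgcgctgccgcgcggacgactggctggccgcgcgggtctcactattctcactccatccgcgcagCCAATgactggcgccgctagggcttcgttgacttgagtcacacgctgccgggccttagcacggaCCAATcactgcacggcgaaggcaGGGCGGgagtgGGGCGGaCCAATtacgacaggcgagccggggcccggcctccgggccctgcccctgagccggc
Plin2 (chr4:86670060-86670309, minus strand): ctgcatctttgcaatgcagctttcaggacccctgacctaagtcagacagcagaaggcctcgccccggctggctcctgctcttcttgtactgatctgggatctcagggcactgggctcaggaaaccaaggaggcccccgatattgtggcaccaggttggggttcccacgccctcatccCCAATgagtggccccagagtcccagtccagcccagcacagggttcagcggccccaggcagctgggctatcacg
Elovl5 (chr9:77917115-77917364, plus strand): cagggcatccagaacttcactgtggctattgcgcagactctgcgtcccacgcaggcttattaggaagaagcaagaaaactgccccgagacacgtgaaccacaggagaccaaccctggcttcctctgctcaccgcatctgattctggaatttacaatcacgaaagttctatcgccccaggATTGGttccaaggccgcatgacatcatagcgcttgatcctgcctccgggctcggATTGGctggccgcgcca
Lpin1 (chr12:16610967-16611216, minus strand): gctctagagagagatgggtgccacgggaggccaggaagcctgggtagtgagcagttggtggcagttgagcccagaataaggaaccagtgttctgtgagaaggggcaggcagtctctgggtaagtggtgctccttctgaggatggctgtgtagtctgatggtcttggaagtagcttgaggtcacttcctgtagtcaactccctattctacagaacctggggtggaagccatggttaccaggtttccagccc
Hmgcs1 (chr13:119690101-119690350, plus strand): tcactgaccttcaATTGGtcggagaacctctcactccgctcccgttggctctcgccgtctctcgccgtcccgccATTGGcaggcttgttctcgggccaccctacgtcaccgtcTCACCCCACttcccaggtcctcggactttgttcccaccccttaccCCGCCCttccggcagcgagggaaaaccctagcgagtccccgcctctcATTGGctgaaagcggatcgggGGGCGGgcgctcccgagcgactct
Cyp51 (chr5:4104698-4104947, minus strand): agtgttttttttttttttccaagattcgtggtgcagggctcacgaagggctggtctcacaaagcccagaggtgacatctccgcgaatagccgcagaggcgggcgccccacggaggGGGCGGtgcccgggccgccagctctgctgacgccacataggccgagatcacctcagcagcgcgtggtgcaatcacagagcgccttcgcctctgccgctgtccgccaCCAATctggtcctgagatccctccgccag
The Hmgcs1 window held 1 sterol element, 3 CCAAT boxes and 2 GC boxes. The Msmo1 window held 3 CCAAT boxes and 2 GC boxes, and 214 of its 250 bases lie inside the span the deposited table gives to that gene. Lpin1 held no match to any of the 3 motifs in this window. Elovl5 held 2 CCAAT boxes, Plin2 held 1, and Cyp51 held 1 CCAAT box and 1 GC box, with 49 of its 250 bases inside the span of that gene.

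The genes spanned a wide range of levels. On the FPKM scale, which divides by gene length and so allows genes to be compared, the median over the 46 genes was 10.6 FPKM, against 3.68 FPKM over all genes past the filter. In WT kidneys given PBS, Plin2, which encodes the coat protein of lipid droplets, was the highest at 48.6 ± 2.75 FPKM (SD, n = 5). Hmgcs1, which condenses acetyl-CoA units at the start of the mevalonate pathway, came next at 38.4 ± 7.32 FPKM, and the 2 genes overlapped, with 44.5 to 51.4 FPKM for Plin2 and 34.1 to 51.4 FPKM for Hmgcs1. Acly, which makes cytosolic acetyl-CoA, followed at 34.8 ± 1.49 FPKM. Fasn was 30th of 46 at 7.32 ± 0.363 FPKM, and Srebf2 at 13.4 ± 0.740 FPKM lay above Srebf1 at 10.6 ± 0.543 FPKM with no overlap between their kidneys (12.3 to 14.2 FPKM and 9.93 to 11.2 FPKM). Acaca, Lss and Acacb sat together near the bottom at 1.41 ± 0.0657, 1.36 ± 0.0456 and 1.36 ± 0.228 FPKM, and their kidneys overlapped. Fdps, the enzyme that makes farnesyl diphosphate, was last at 0.251 ± 0.0347 FPKM, with 6 to 36 counts per kidney, too few to say much about its changes. The handling of reads with several matching places is not given in the sources used here.

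**Figure D1:**
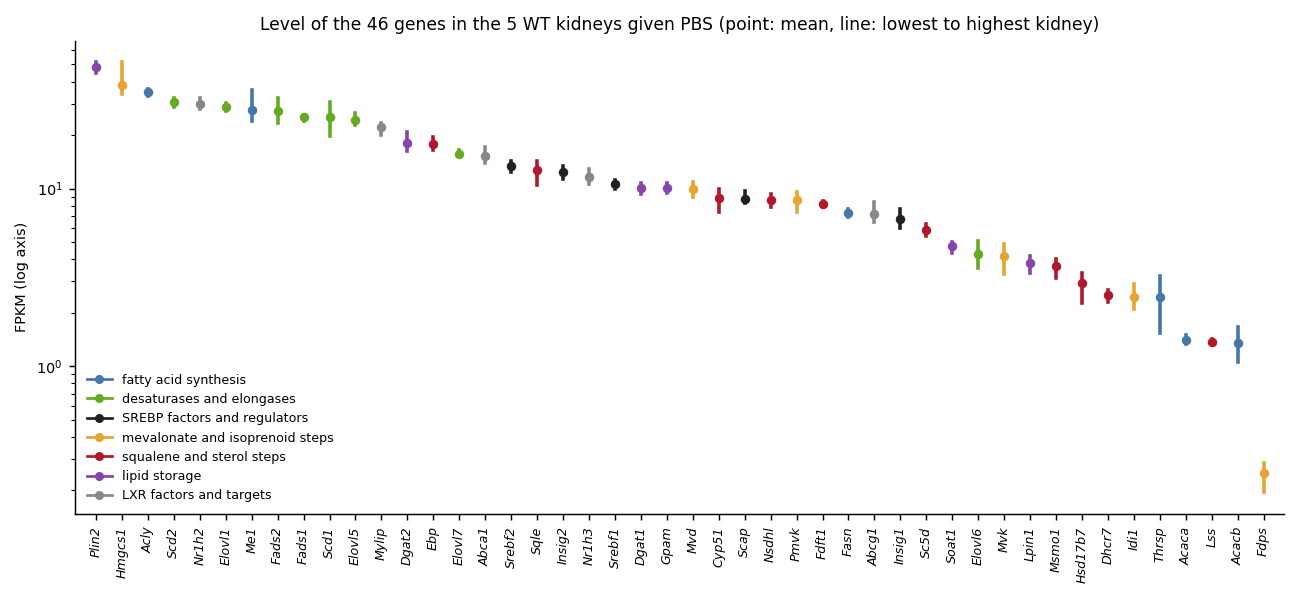
FPKM on a log axis for each of the 46 genes (x axis, ordered by mean) in the 5 WT kidneys given PBS, with points for the mean, lines from the lowest to the highest kidney, and colours for the role of the gene. Plin2 is the highest at 48.6 FPKM and Fdps the lowest at 0.251 FPKM, and genes of different roles are interleaved along the axis.

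The comparison of CD5L KO with WT mice given PBS asks what the absence of CD5L does to these RNAs in the injured kidney. Of the 46, 5 passed the test: Fdft1, Msmo1 and Plin2 were higher in CD5L KO kidneys, and Elovl5 and Lpin1 were lower. The differences were small, from 0.22 to 0.51 on the log2 scale in size. The genes that open fatty acid and cholesterol synthesis, and the SREBP and LXR factors themselves, did not pass. In all, 5 of 46 genes were called (edgeR quasi-likelihood test, Benjamini-Hochberg adjusted p under 0.05 over all genes tested), which is to be read against 10.5% of the 17579 genes tested. By direction, 3 were called higher, against 5.13% of all genes, and 2 lower, against 5.40%. At an unadjusted p under 0.05 there were 10 of 46, against 26.6%, and the 2 groups did not overlap for 6 of 46, against 14.1%. The 46 genes divided into 22 higher and 24 lower, and their median log2 fold change was -0.00, as was that of all genes tested. On plain totals 17 were higher and 29 lower, the median was -0.04 for the 46 and for all genes, and 5 were called, against 10.2% of all genes, with Acly in place of Plin2.

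**Figure D2:**
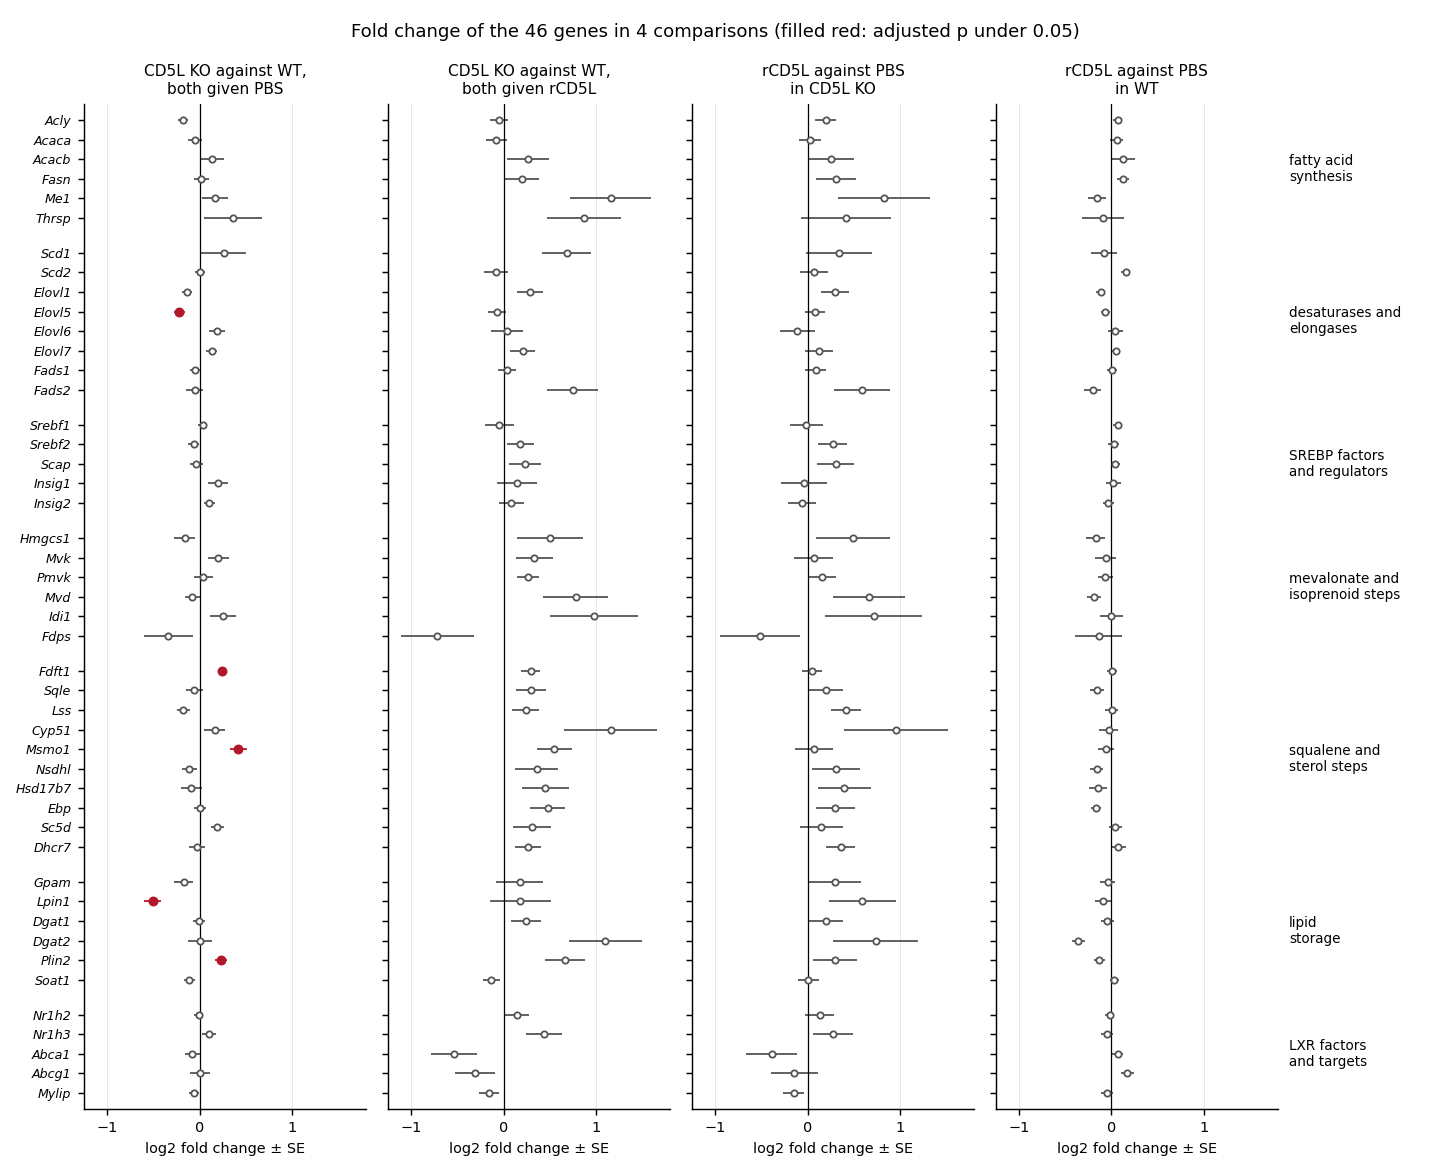
Log2 fold change (x axis, edgeR) with its standard error for the 46 genes, grouped by role, in 4 comparisons. Filled red points passed an adjusted p of 0.05, which 5 genes did in CD5L KO against WT mice given PBS and 0 in the other 3 comparisons. Error bars are wider in both comparisons that use the CD5L KO kidneys given rCD5L.

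Of the 10 genes of the squalene and sterol steps, 2 rose in CD5L KO kidneys. Fdft1 (chr14:63145150-63179578) encodes squalene synthase, the first enzyme committed to sterols. Its values were 50.1, 49.7, 49.3 and 51.1 CPM in the 4 CD5L KO kidneys given PBS and 40.6, 41.0, 44.0, 41.1 and 43.6 CPM in the 5 WT kidneys given PBS. Every CD5L KO kidney lay above every WT kidney, and the log2 fold change was 0.24 ± 0.05 (SE; edgeR adjusted p = 0.0112). Fdft1 overlaps Ctsb, a gene on the opposite strand with a mean of 27727 counts per kidney against 983 for Fdft1. The strand setting of the counting is not given in the sources used here, so reads of the overlap cannot be assigned with certainty. Ctsb itself had a log2 fold change of -0.06 ± 0.06 (adjusted p = 0.626). The same limit holds for 3 other members with an expressed gene on the opposite strand: Cyp51 (mean of 1237 counts) with Akap9 (1948), Srebf1 (1599) with Rai1 (1126) and Elovl1 (2007) with Cdc20 (254). Akap9, Rai1 and Cdc20 were not called in any of the 4 comparisons of 2 groups, and on PBS their log2 fold changes between genotypes were -0.15, -0.13 and -0.32.

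Msmo1 (chr8:64718139-64733792) encodes the sterol C4-methyl oxidase, which acts on lanosterol-derived intermediates. It measured 39.0, 35.8, 33.6 and 38.0 CPM in the CD5L KO kidneys and 29.3, 23.6, 29.6, 23.5 and 30.2 CPM in the WT kidneys. The groups did not overlap, and the log2 fold change was 0.42 ± 0.09 (edgeR adjusted p = 0.0148). Both Fdft1 and Msmo1 were called in each of the 9 fits that left out 1 kidney, and neither was with all 19 kidneys in 1 edgeR fit (adjusted p = 0.220 and 0.287). The other 8 genes of these steps were not called, with log2 fold changes from -0.18 for Lss, lanosterol synthase, to 0.19 for Sc5d, a sterol desaturase. Sqle, squalene epoxidase, measured 74.4 to 93.9 CPM in CD5L KO and 70.7 to 96.0 CPM in WT kidneys, with a log2 fold change of -0.06 ± 0.09 (adjusted p = 0.740).

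Lipid storage held 1 rise and 1 fall among its 6 genes. Lpin1 (chr12:16535669-16610966) encodes lipin 1, the phosphatidate phosphatase that makes diacylglycerol for triglyceride synthesis. Its values were 30.1, 30.0, 37.3 and 28.6 CPM in CD5L KO kidneys and 42.4, 39.5, 49.0, 49.3 and 42.9 CPM in WT kidneys. All CD5L KO kidneys lay below all WT kidneys, and the log2 fold change of -0.51 ± 0.09 was the largest in size among the called members (edgeR adjusted p = 0.00720). It was called in each of the 9 fits without 1 kidney but not with all 19 kidneys in 1 fit (adjusted p = 0.535). Plin2 (chr4:86648386-86670060), the droplet coat protein, measured 230.6, 230.6, 259 and 261 CPM in CD5L KO kidneys and 202, 215, 189.8, 219 and 212 CPM in WT kidneys. The CD5L KO kidneys were again all above, with a log2 fold change of 0.23 ± 0.06 (adjusted p = 0.0361). That call was less stable, since it held in 2 of the 9 fits without 1 kidney and the adjusted p there reached 0.0895, and it was 0.688 with all 19 kidneys in 1 fit and 0.0729 on plain totals. Gpam, Dgat1, Dgat2 and Soat1, which acylate glycerol phosphate, diacylglycerol or cholesterol, lay between -0.17 and -0.00 on the log2 scale and were not called. Gpam was called without replicate 3 of the CD5L KO kidneys, at -0.32 (adjusted p = 0.0175).

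**Figure D3:**
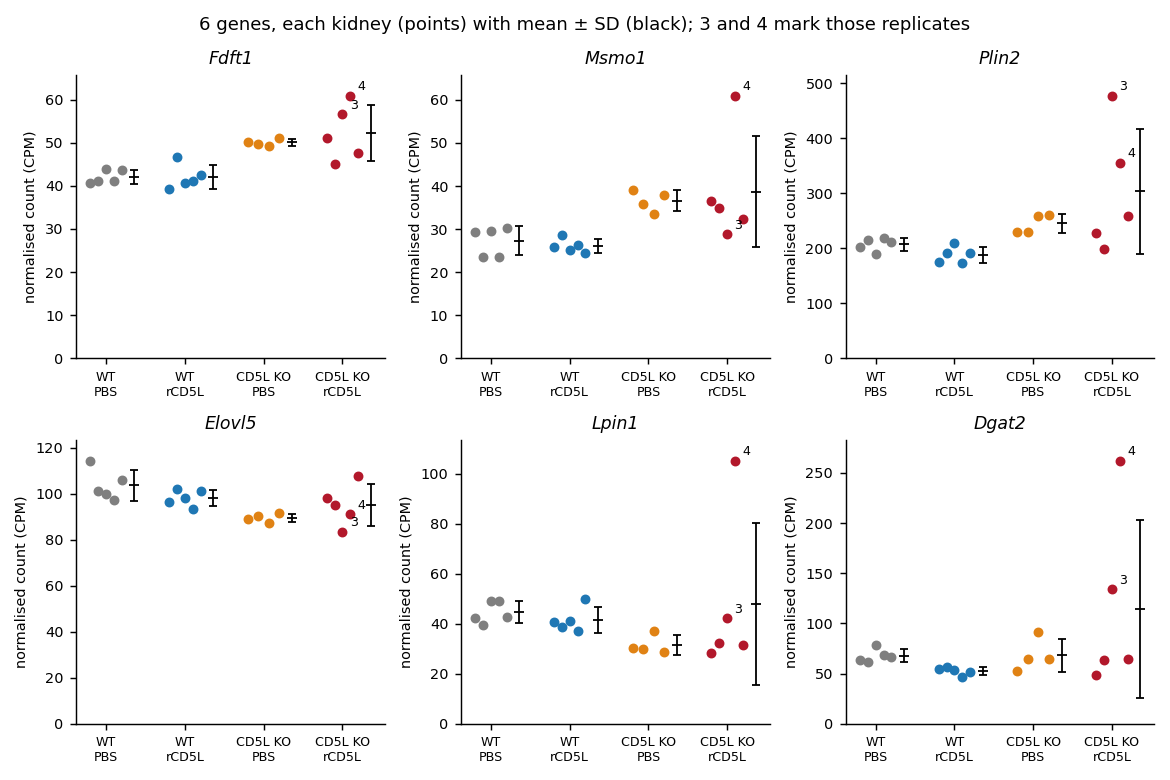
Normalised counts (y axis, CPM, from 0) of Fdft1, Msmo1, Plin2, Elovl5, Lpin1 and Dgat2 in each kidney of the 4 groups, with black marks for the mean and SD; the numerals 3 and 4 mark those replicates of the CD5L KO group given rCD5L. For Msmo1 the CD5L KO kidneys given PBS lie at 33.6 to 39.0 CPM and the WT kidneys given PBS at 23.5 to 30.2 CPM, and for Dgat2 replicate 4 reaches 262 CPM.

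Among the 8 desaturases and elongases, Elovl5 (chr9:77917364-77984519), which lengthens polyunsaturated fatty acids, fell. It measured 89.1, 90.3, 87.3 and 91.6 CPM in CD5L KO kidneys and 114, 101, 99.9, 97.3 and 106 CPM in WT kidneys, with no overlap. The log2 fold change was -0.22 ± 0.06 (edgeR adjusted p = 0.0289), and it was called in 3 of the 9 fits without 1 kidney and not with all 19 kidneys in 1 fit (adjusted p = 0.268). Scd1, the stearoyl-CoA desaturase that makes oleate, was spread widely within CD5L KO kidneys, at 106, 244, 246 and 118 CPM, against 180, 117, 166, 117 and 163 CPM in WT kidneys. The groups overlapped and the log2 fold change of 0.26 ± 0.25 was about the size of its error (adjusted p = 0.552). The remaining 6 ran from -0.13 for Elovl1 to 0.18 for Elovl6, 0 of them called.

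None of the 6 genes of fatty acid synthesis passed. Acly came nearest, at 198, 185, 202 and 205 CPM in CD5L KO and 213, 224, 214, 233 and 233 CPM in WT kidneys. The CD5L KO kidneys were all lower, but the log2 fold change of -0.18 ± 0.05 had an edgeR adjusted p of 0.0512. It passed with DESeq2 (adjusted p = 0.0112), on FPKM with limma at either pseudocount (0.0361 and 0.0363), in edgeR on plain totals (0.0310) and in edgeR without replicate 3 of the WT kidneys (0.0407). Fasn, fatty acid synthase and the enzyme that CD5L is known to inhibit as a protein, had 86.9, 109, 111 and 89.7 CPM in CD5L KO kidneys and 92.6, 91.9, 99.3, 102 and 102 CPM in WT kidneys. These overlapped fully, with a log2 fold change of 0.02 ± 0.08 (adjusted p = 0.909). Acaca, the cytosolic acetyl-CoA carboxylase, had 28.3 ± 2.78 CPM (SD, n = 4) in CD5L KO and 29.2 ± 1.40 CPM (SD, n = 5) in WT kidneys, with a log2 fold change of -0.06 ± 0.07 (adjusted p = 0.686).

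The factors that control the pathways did not pass either. Srebf1, the SREBP of fatty acid synthesis, had 74.8 ± 1.44 CPM in CD5L KO and 72.8 ± 3.67 CPM in WT kidneys, with a log2 fold change of 0.03 ± 0.05 (edgeR adjusted p = 0.744). Srebf2, the SREBP of cholesterol synthesis, had 112 ± 5.84 and 117 ± 6.57 CPM, a log2 fold change of -0.07 ± 0.06 (adjusted p = 0.505). Scap, Insig1 and Insig2 were also not called, the largest being 0.20 for Insig1. Hmgcs1 had 193 ± 18.5 CPM in CD5L KO and 215 ± 40.8 CPM in WT kidneys, with a log2 fold change of -0.16 ± 0.12 (adjusted p = 0.405), and the 6 mevalonate and isoprenoid genes ran from -0.34 for the sparse Fdps to 0.25 for Idi1. Nr1h3, the LXRα gene, had a log2 fold change of 0.10 ± 0.08 (adjusted p = 0.411), and its target Abca1 one of -0.08 ± 0.08 (adjusted p = 0.559). The 5 LXR genes together stayed between -0.08 and 0.10.

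Markers of other cells moved in the same comparison. The 6 myofibroblast markers summed to 2498 to 3457 CPM in CD5L KO and 3651 to 5715 CPM in WT kidneys, and 4 of the 6 were called lower, with Col3a1 at -0.86 on the log2 scale. Of 5 endothelial markers, 3 were called lower, and their sums did not overlap (519 to 575 CPM against 624 to 695 CPM). Of 8 macrophage markers, 1 was called lower, Csf1r at -0.47. Of the 8 adipocyte markers 7 could be tested, and all 7 were above 0 (6 on plain totals), with a median log2 fold change of 0.77, 3 of them at an unadjusted p under 0.05 and 0 called. They summed to 67.8 to 210 CPM in CD5L KO and 36.0 to 183 CPM in WT kidneys, with overlap. The 9 proximal tubule markers summed to 1206 to 2234 CPM and 1269 to 2655 CPM, with 0 called. The part of these cells in the fold changes of Fdft1, Msmo1, Plin2, Elovl5 and Lpin1 was not tested. Adrenal cortex, which makes sterols in bulk and lies beside the kidney, had low marker levels: its 8 markers summed to 14.6 to 34.4 CPM over all 19 kidneys, with Cyp11b2 at 0 counts in every kidney. Of 6 epididymis markers, Lcn9 was at 0 in every kidney, and 0 of the 4 that could be tested were called. Nor was any called of 6 lymphocyte, 5 thick ascending limb, 5 principal cell and 5 urothelium markers, with median log2 fold changes of -0.10, -0.38, 0.01 and 0.79. Fold change also fell with gene length in this comparison (Spearman correlation -0.28 over 17579 genes, given as a description, since genes are no replicates), and with an offset for length, chosen after seeing the data, 4 members were called, against 7.42% of all genes, Plin2 having an adjusted p of 0.0523.

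The same genotype comparison in mice given rCD5L used other kidneys. Here 0 of 46 genes were called, against 0.00% of the 17360 genes tested (edgeR). At an unadjusted p under 0.05 there were 13 of 46, against 17.8% of all genes. There were 12 without replicate 4, against 16.2%, and 9 without replicates 3 and 4, against 21.5%. In all, 36 of 46 were higher in CD5L KO kidneys, with a median log2 fold change of 0.25 against -0.01 over all genes tested. On plain totals 28 were higher, the median was 0.06 against -0.17 over all genes, and 6 had an unadjusted p under 0.05, against 13.8%. The 9 proximal tubule markers were all higher too, with a median of 1.95 and 0 called, against a median of 0.50 without replicate 4 and 0.31 without replicates 3 and 4. Adipocyte markers were above 0 for 6 of 7 tested, with medians of 0.66, 0.71 and 0.52 in the same order, and myofibroblast markers for 0 of 6, with medians of -0.47, -0.30 and -0.52. With all kidneys, macrophage markers were above 0 for 0 of 8 (median -0.17) and lymphocyte markers for 0 of 6 (-0.32). Principal cell markers were so for 4 of 4 tested (0.39) and urothelium markers for 5 of 5 (0.41). The remaining marker lists had values on both sides of 0, and 0 markers were called. The part of these cells in the shift was not tested. All 10 squalene and sterol genes were higher, from 0.24 for Lss to 1.16 for Cyp51, the lanosterol demethylase, and all 10 were also above 0 on plain totals. Akap9, which overlaps Cyp51, had a log2 fold change of -0.23 ± 0.18 here (edgeR adjusted p = 0.490). The groups did not overlap for 1 of 46 genes, against 7.52% of all genes: Msmo1, with 36.6, 34.9, 28.8, 61.0 and 32.3 CPM in CD5L KO kidneys and 25.9, 28.7, 25.2, 26.2 and 24.4 CPM in WT kidneys. DESeq2 gave an adjusted p to 44 of the members and called 0 of those, against 0.205% of the 31159 genes in its fit.

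Replicates 3 and 4 carried much of that shift. Without replicate 4, 31 of 46 genes were higher and the median was 0.10. Without replicates 3 and 4, 27 were higher and the median was 0.02. The spread within the group also fell, and 2 members were then called, against 3.58% of the 18012 genes tested: Msmo1, higher by 0.40 on the log2 scale (edgeR adjusted p = 0.0209), and Lpin1, lower by a log2 fold change of -0.44 (adjusted p = 0.0333). In the 3 remaining CD5L KO kidneys Msmo1 stood at 34.6 ± 2.13 CPM (SD, n = 3) against 26.1 ± 1.63 CPM (SD, n = 5) in WT kidneys, and Lpin1 at 30.8 ± 2.11 CPM against 41.5 ± 5.06 CPM. With all 5 kidneys Lpin1 had a log2 fold change of 0.18 ± 0.33, since replicate 4 held 105 CPM and the other 4 held 28.4 to 42.2 CPM. Fdft1 and Plin2 kept positive log2 fold changes of 0.18 and 0.27 without both kidneys but were not called (adjusted p = 0.152 and 0.0957). All 10 squalene and sterol genes were still higher, with a median of 0.13. Elovl5, lower in the comparison on PBS, had a log2 fold change of 0.02. Markers called in the same fit were Slc17a3 and Miox of the proximal tubule, higher, and Slc12a1 and Casr of the thick ascending limb, Col3a1 of myofibroblasts and Kdr, Plvap and Tie1 of endothelium, lower; their part in the values of Msmo1 and Lpin1 was not tested.

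When all 19 kidneys entered 1 fit and so shared 1 estimate of the spread, 6 members were called in this comparison, against 7.00% of all genes: Fads2, Fdft1, Msmo1, Ebp, Dgat2 and Plin2, all higher. The same fit called 0 members in mice given PBS, against 0.0650% of all genes. Its log2 fold changes on rCD5L, with replicates 3 and 4 in the group, were 1.12 for Dgat2, 0.77 for Fads2, 0.69 for Plin2, 0.57 for Msmo1, 0.50 for Ebp and 0.31 for Fdft1. In the fit of the 2 groups without replicates 3 and 4 they were 0.16, 0.21, 0.27, 0.40, 0.16 and 0.18 in the same order. Of these 6 genes, Msmo1 alone was called there.

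What giving the missing protein back does to these RNAs was asked by comparing rCD5L with PBS in CD5L KO mice. No member was called, against 0.00% of the 17467 genes tested (edgeR), and DESeq2, which gave an adjusted p to 44 of them, called 0, against 0.00973% of the 30845 genes in its fit. At an unadjusted p under 0.05 there were 2 of 46, Lss and Dhcr7, against 2.87% of all genes. There were 2 without replicate 4, against 5.54%, 3 without replicates 3 and 4, against 9.76%, and 0 on plain totals, against 1.86%. The groups overlapped for all 46, the share without overlap being 2.35% over all genes. The log2 fold change was above 0 for 38 of 46 genes, with a median of 0.23 against 0.02 for all genes tested, and on plain totals for 28, with a median of 0.09 against -0.08. Those positive values included all 6 genes of fatty acid synthesis, all 6 of lipid storage and all 10 of the squalene and sterol steps, while Abca1, Abcg1 and Mylip, which LXR induces, were below 0. Without replicate 4 the counts above 0 were 6 of 6, 5 of 6 and 6 of 10, and without replicates 3 and 4 they were 4 of 6, 1 of 6 and 4 of 10. On plain totals they were 5 of 6, 5 of 6 and 7 of 10. Abcg1 changed sign, to 0.05 and 0.04, while Abca1 stayed below 0 (-0.20 and -0.06), as did Mylip (-0.14 and -0.06). On plain totals all 3 were below 0.

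**Figure D4:**
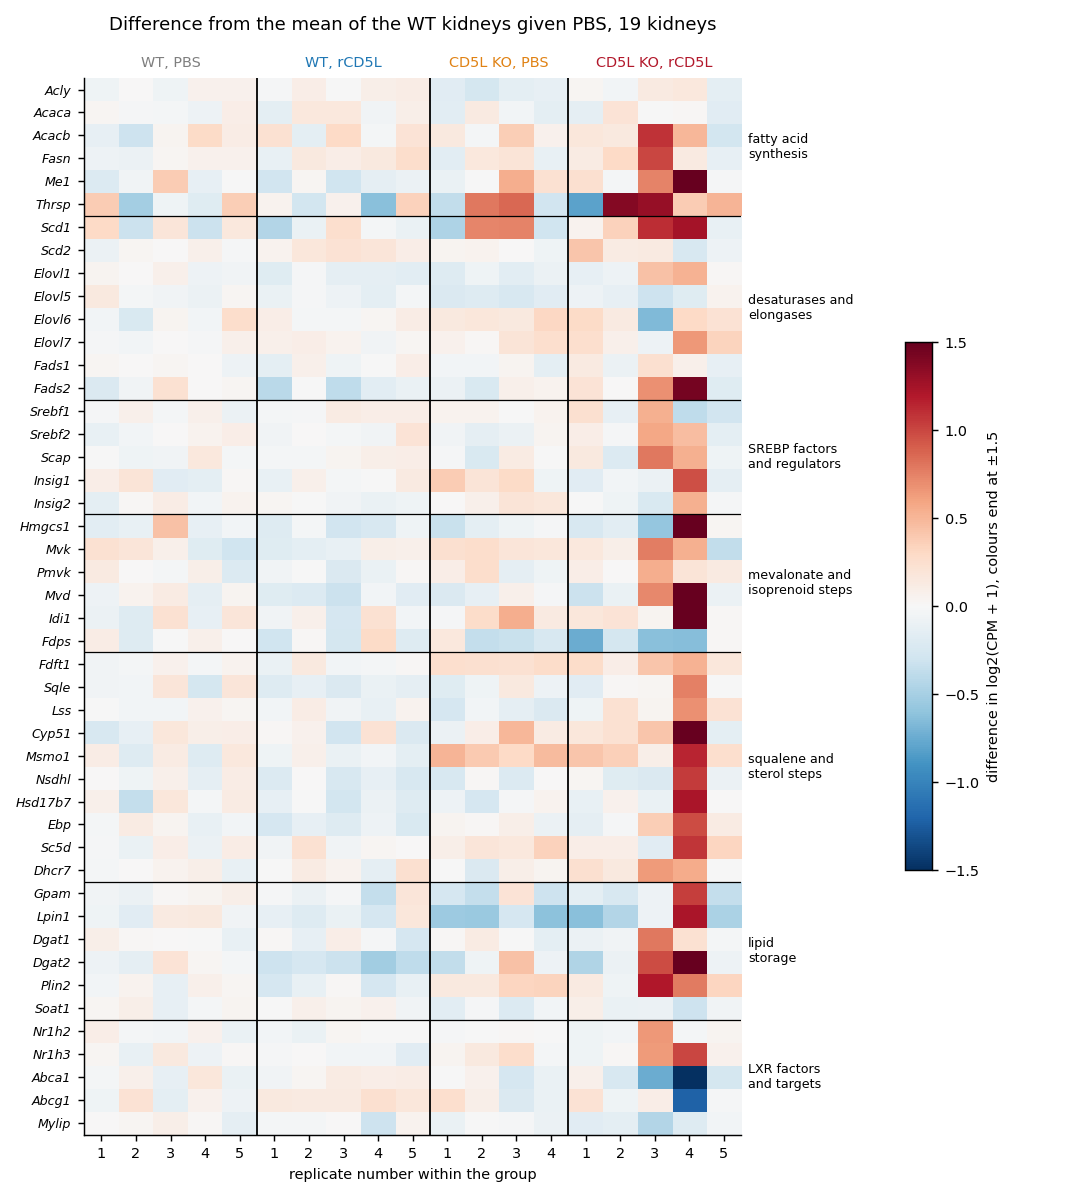
Difference of each gene (rows, grouped by role) from the mean of the 5 WT kidneys given PBS, in log2(CPM + 1) with TMM-scaled CPM, for each of the 19 kidneys (columns, by group and replicate number). Replicate 4 of the CD5L KO group given rCD5L is red over most sterol, mevalonate and storage genes and blue for Abca1 and Abcg1, and replicate 3 is red over Acacb, Fasn, Me1 and Plin2. Strong colours elsewhere are few, chiefly at Thrsp and Scd1.

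Most of that shift came with replicates 3 and 4. Replicate 4 lay above all 17 other kidneys (replicate 3 set aside) for 31 of 46 genes and below all of them for 5 on the TMM-scaled CPM, and for 16 and 17 genes on plain totals. Cyp51 measured 309 CPM in replicate 4 against 38.4 to 67.3 CPM in the 17 kidneys, and Idi1, isopentenyl diphosphate isomerase, 59.2 CPM against 8.59 to 15.6 CPM. Hmgcs1 reached 636 CPM against 167 to 287 CPM, and Me1, the malic enzyme that supplies NADPH to lipid synthesis, 692 CPM against 105 to 188 CPM. Sqle reached 144 CPM against 70.7 to 96.0 CPM. In the same kidney Abca1, the cholesterol exporter, was at 62.5 CPM against 159 to 216 CPM, and Srebf1 was at 55.7 CPM against 59.2 to 86.3 CPM, while Srebf2 was at 161 CPM against 106 to 134 CPM. On plain totals Cyp51 (211 plain CPM against 41.1 to 65.1), Idi1 (40.4 against 9.19 to 15.1), Hmgcs1 (433 against 169 to 287) and Me1 (472 against 112 to 182) still lay above the 17 kidneys, and Abca1 (42.6 against 155 to 225) and Srebf1 (38.0 against 60.9 to 86.5) below them. Sqle (98.2 against 73.4 to 99.3) and Srebf2 (110 against 106 to 142) lay within their range. In replicate 4, Cyp51, Idi1 and Hmgcs1 thus stood at the opposite end from Abca1 on either scale, which replicate 3, described next, did not share.

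Replicate 3 lay above all 17 kidneys for 22 genes and below them for 8 (18 and 13 on plain totals), and its genes were partly others. Fasn reached 196 CPM there against 86.9 to 120 CPM, and Plin2 478 CPM against 174 to 261 CPM. Srebf1 reached 105.5 CPM against 59.2 to 86.3 CPM. Hmgcs1, in contrast to replicate 4, was low at 142 CPM against 167 to 287 CPM. Abca1 was low as well, at 114 CPM against 159 to 216 CPM, while Cyp51 (63.3 CPM) and Idi1 (10.7 CPM) lay within the range of the 17 kidneys. Fasn, Plin2, Srebf1, Hmgcs1 and Abca1 lay on the same side of the 17 kidneys on plain totals, and Cyp51 and Idi1 again within their range. By median difference from the WT kidneys given PBS, in log2(CPM + 1), the squalene and sterol genes stood at 1.01 in replicate 4 and 0.06 in replicate 3, and the fatty acid synthesis genes at 0.27 and 0.87. On plain totals those medians were 0.43 and -0.17 for the squalene and sterol genes and -0.29 and 0.63 for the fatty acid synthesis genes, so that the sign turned for the first set in replicate 3 and for the second in replicate 4. The marker sums and mitochondrial counts given above move with replicate 4, and the principal cell, epididymis, endothelial and myofibroblast sums and Gm23935 with replicate 3, the endothelial and myofibroblast sums on the TMM-scaled CPM alone. Their part in the lipid genes of these kidneys was not tested.

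Without replicate 4, 33 of 46 log2 fold changes were above 0 and the median was 0.08. Without replicates 3 and 4, 20 were above 0, 26 below, and the median was -0.02, with 0 members called (smallest adjusted p = 0.408). The lead genes followed. Fasn moved from 0.30 ± 0.22 to 0.08, Scd1 from 0.34 ± 0.36 to -0.18, Hmgcs1 from 0.49 ± 0.40 to 0.02, Sqle from 0.20 ± 0.19 to -0.01 and Plin2 from 0.29 ± 0.24 to -0.10. Srebf2 moved from 0.27 ± 0.16 to 0.04, Nr1h3 from 0.27 ± 0.22 to -0.10 and Abca1 from -0.39 ± 0.28 to -0.06. Acaca stayed at 0.03 and Srebf1 lay at -0.01 ± 0.18 and -0.08. Of the 5 genes called between genotypes on PBS, Fdft1, Msmo1, Lpin1 and Plin2 had log2 fold changes between -0.10 and -0.03 without the 2 kidneys. Elovl5 had 0.17 (unadjusted p = 0.0285, adjusted p = 0.464). Epididymis markers were above 0 in this comparison for 4 of 4 tested, with a median of 1.40 with all kidneys, 1.39 without replicate 4 and 1.03 without replicates 3 and 4, and 0 called. With all kidneys, proximal tubule markers were above 0 for 9 of 9 (median 1.34) and thick ascending limb markers for 5 of 5 (0.37). Principal cell markers were so for 4 of 4 tested (0.22) and urothelium markers for 0 of 5 (-0.49). The remaining marker lists had values on both sides of 0, and 0 markers were called. The part of these cells was not tested.

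**Figure D5:**
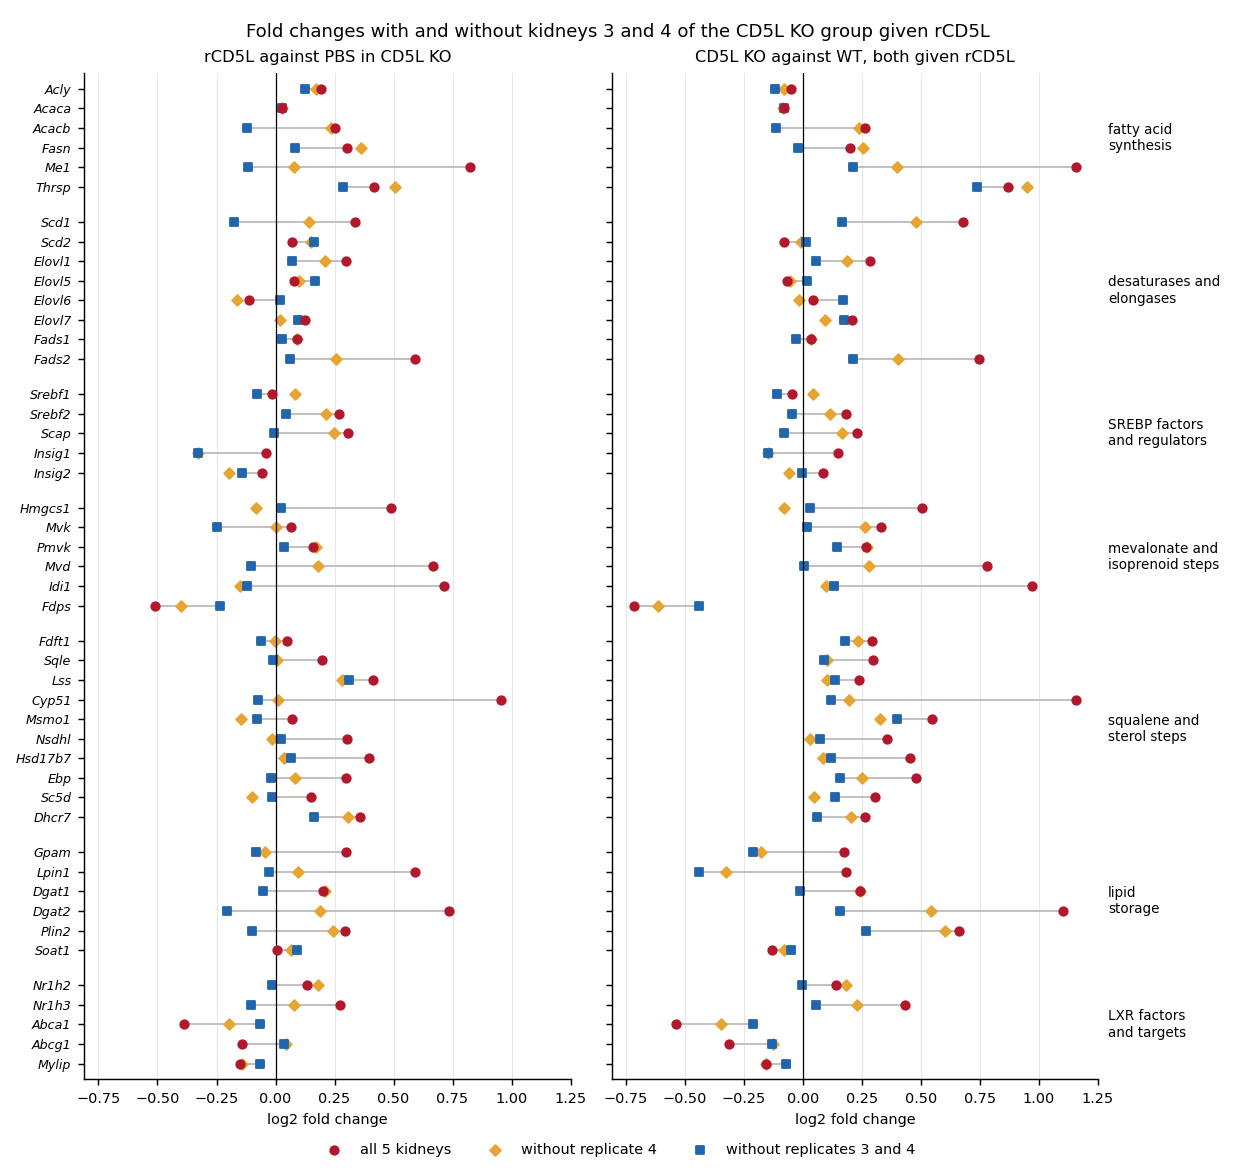
Log2 fold change (x axis) of the 46 genes in both comparisons that use the CD5L KO kidneys given rCD5L, with all 5 kidneys (red circles), without replicate 4 (orange diamonds) and without replicates 3 and 4 (blue squares). Values for rCD5L against PBS draw in towards 0, from a median of 0.23 to one of -0.02, while without both kidneys Msmo1 lies at 0.40 and Lpin1 at -0.44 in the comparison of genotypes.

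In WT mice, rCD5L against PBS was measured with much less spread between kidneys (biological coefficient of variation 11.6%, against 28.8% for the same comparison in CD5L KO mice). The 28.8% comes from a fit that holds replicates 3 and 4 of the CD5L KO group given rCD5L. Between genotypes on PBS the coefficient was 12.6%. No member was called by edgeR, against 0.00% of the 17455 genes tested. At an unadjusted p under 0.05 there were 9 of 46, against 16.0% of all genes. The 46 genes divided into 19 higher and 27 lower, with a median log2 fold change of -0.04. All 6 mevalonate and isoprenoid genes were below 0, from -0.19 for Mvd to -0.00 for Idi1, and 0 of them were called. On plain totals 5 of the 6 were below 0, and again 0 members were called, against 0.00573% of all genes. In the same kidneys all 9 proximal tubule markers were below 0, with a median of -0.50, 7 of them at an unadjusted p under 0.05 and 0 called; all 4 epididymis markers tested were above 0 (median 0.75, 3 at an unadjusted p under 0.05, 0 called), as were all 6 lymphocyte markers (median 0.34, 0 called). The part of these cells in the values of the 46 genes was not tested.

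Dgat2, which makes triglyceride from diacylglycerol, was the 1 member whose groups did not overlap, against 3.60% of all genes. It measured 54.3, 56.3, 53.9, 46.5 and 51.4 CPM in WT kidneys given rCD5L and 63.9, 61.1, 78.2, 68.9 and 66.2 CPM in those given PBS. Each kidney given rCD5L was lower than each given PBS, and the log2 fold change was -0.36 ± 0.07, with an edgeR adjusted p of 0.104. DESeq2 called it as its 1 member (adjusted p = 0.00219), against 1.60% of the 31800 genes in its fit, and so did edgeR without the filter on low counts (adjusted p = 0.0171), against 0.430% of 31830. Both sets take in genes that the filter leaves out. Between genotypes on PBS, Dgat2 had a log2 fold change of -0.00 ± 0.13, and it is described in full because its groups separated, a choice made after its values were seen. Fasn had a log2 fold change of 0.12 ± 0.06 (adjusted p = 0.363), with 90.1 to 117 CPM on rCD5L and 91.9 to 102 CPM on PBS. Scd1 had -0.08 ± 0.14, Acaca 0.06 ± 0.07, Srebf1 0.07 ± 0.05, Srebf2 0.03 ± 0.06, Hmgcs1 -0.17 ± 0.10, Sqle -0.15 ± 0.07, Plin2 -0.13 ± 0.06, Nr1h3 -0.05 ± 0.06 and Abca1 0.07 ± 0.06 on the log2 scale, none of them called. The 5 genes that differed between genotypes on PBS lay between -0.13 and 0.01 here.

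Whether rCD5L acted differently in CD5L KO and in WT kidneys was tested by the interaction of genotype and treatment over all 19 kidneys. No member was called, against 0.00% of the 18454 genes tested, and the smallest adjusted p among members was 0.731 (edgeR; DESeq2 called 0 of the 44 to which it gave an adjusted p, against 0.00% of all genes). At an unadjusted p under 0.05 there were 6 of 46, against 6.25% of all genes. There were 5 without replicate 4, against 4.97%, and 4 without replicates 3 and 4, against 4.96%. The interaction was above 0 for 35 of 46 genes with all kidneys (median 0.26), for 31 without replicate 4 (median 0.11), for 24 without replicates 3 and 4 (median 0.01) and for 27 on plain totals (median 0.09, against -0.12 over all genes). Among the 10 squalene and sterol genes it was above 0 for 10, 7, 6 and 7 in the same order, with medians of 0.40, 0.15, 0.12 and 0.22. The interaction of Fasn was 0.20 ± 0.23 with all kidneys and -0.04 without those 2. With all kidneys, proximal tubule markers were above 0 for 9 of 9 (median 1.84, 8 at an unadjusted p under 0.05 in edgeR) and endothelial markers for 5 of 5 (0.18). Lymphocyte markers were so for 0 of 6 (-0.35) and urothelium markers for 0 of 5 (-0.36). The remaining marker lists had values on both sides of 0, and 0 markers were called. The part of these cells in the interaction was not tested.

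The wider pathway was read from 42 other lipid genes, among them Acss2, Mlxipl and Lpl, of which 38 could be tested between genotypes on PBS. Of these, 1 was called higher and 0 lower, against 5.13% and 5.40% of all genes tested. G0s2, an inhibitor of the lipase that empties lipid droplets, rose by a log2 fold change of 0.30 ± 0.09 (edgeR adjusted p = 0.0458). The median over the 38 was 0.00, with 20 above 0. On plain totals, where 10.2% of all genes were called, G0s2 was not called, and Mid1ip1 was called lower, at -0.21 (edgeR adjusted p = 0.0375). In mice given rCD5L the median between genotypes was 0.25, with 30 of 38 above 0 and 0 called. Without replicate 4 it was 0.14, with 24 of 38 above 0 and 0 called. Without replicates 3 and 4 it was 0.05, with 25 of 39 above 0 and 2 called, against 3.58% of all genes (Agpat2 at 0.34 and Mid1ip1 at -0.29, edgeR adjusted p = 0.0210 and 0.0333). On plain totals it was 0.06, with 22 of 38 above 0 and 0 called. Agpat2 encodes an acyltransferase of triglyceride synthesis and Mid1ip1 a partner of acetyl-CoA carboxylase. For rCD5L against PBS in CD5L KO kidneys the median was 0.16, with 30 of 39 above 0, then 0.12 with 27 and -0.00 with 19, and 0.02 with 22 on plain totals, and 0 were called in each. Their summed level was 5038 CPM in replicate 4 and 3383 CPM in replicate 3 of the CD5L KO group given rCD5L, against 2344 to 2688 CPM in the other 17 kidneys, and 3432 and 2953 plain CPM against 2468 to 2685.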

How the data were processed

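The authors deposited raw counts per gene and FPKM values for 19 whole UUO kidneys. Their methods name Trimmomatic for trimming, HISAT2 with the GRCm38 genome, and featureCounts; versions and the strand setting are not given in the sources used here. Groups came from the sample labels. All genes were tested on the deposited counts with edgeR 4.0.16 in R 4.3.3 (TMM scaling, filterByExpr with a minimum count of 10, quasi-likelihood test), with Benjamini-Hochberg adjustment and a threshold of 0.05. A fit held only the 2 groups compared, except for the interaction, which used all 19. The SE is the size of the log2 fold change over the root of F. CPM are counts over TMM-scaled totals; plain totals, with no such factor, were an alternative. The FPKM that the authors deposited served for levels between genes and, with limma 3.58.1, as an alternative. DESeq2 1.42.0 was another. The code was tested on simulated data.

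The members, their roles, the 42 other lipid genes and the marker lists (adipocyte, adrenal cortex, epididymis, proximal tubule, thick ascending limb, principal cell, macrophage, lymphocyte, myofibroblast, endothelial cell and urothelium) were chosen with earlier results of these data known. Described in full were the members called and Fasn, Acaca, Scd1, Srebf1, Srebf2, Hmgcs1, Sqle, Plin2, Abca1 and Nr1h3; the others are given by range and counts, and of the other lipid genes those called. Per the methods, surgery, injections and later processing alternated between the groups. P-values measure the spread between these kidneys, which may in part be technical. Limits on a count of 0 cover counting error only.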

Additional observations from a re-analysis of the deposited data

Results flagged for a closer look

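Within each group, the highest or lowest kidney was compared with the rest by its gap over the range (Dixon's criterion at 95%). Of 184 sets of values, 27 had such a kidney. Chance gives about 1 in 20 per set, but the sets come from the same 19 kidneys and are not independent, so the count is a description. In 22 it was the highest, and 13 of the 27 were replicate 4 of the CD5L KO group given rCD5L. CPM here are TMM-scaled, which raises the values of that kidney over its plain total.

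Replicate 4 of that group stood apart upwards for Me1 (692 CPM), Insig1 (50.5 CPM), Insig2 (76.2 CPM), Hmgcs1 (636 CPM), Idi1 (59.2 CPM), Sqle (144 CPM), Cyp51 (309 CPM), Msmo1 (61.0 CPM), Nsdhl (63.4 CPM), Hsd17b7 (43.9 CPM), Gpam (97.8 CPM) and Lpin1 (105 CPM), and downwards for Abcg1 (14.6 CPM). Replicate 3 stood apart upwards for Fasn (196 CPM), Dgat1 (65.6 CPM) and Nr1h2 (192 CPM), and downwards for Elovl6 (20.5 CPM).

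In CD5L KO kidneys given PBS, replicate 3 was apart upwards for Gpam (54.5 CPM) and Lpin1 (37.3 CPM) and downwards for Srebf1 (72.7 CPM), and replicate 4 upwards for Elovl6 (41.4 CPM). In WT kidneys given PBS, the values were Hmgcs1 at 287 CPM in replicate 3 and Scap at 87.6 CPM in replicate 4, both high, and Fads1 at 101 CPM in replicate 5, low. In WT kidneys given rCD5L, Elovl1 in replicate 2 (94.1 CPM) and Srebf2 in replicate 5 (134 CPM) were high, and Mylip in replicate 4 (69.9 CPM) was low.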

How the results depend on the processing

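Between genotypes on PBS, 5 members were called. The count was 0 with all 19 kidneys in 1 fit (0.0650%), 4 without the filter (against 5.03% of all genes), 4 with a gene length offset (7.42%) and 6 by DESeq2 (8.14%), and it ranged from 3 to 5 when 1 kidney was left out (5.81% to 11.8%), with 3 without replicate 4 of the CD5L KO group or without replicate 2 or 5 of the WT group. The unfiltered and DESeq2 fits held 31595 and 31568 genes, against 17579 in the main fit. They take in genes that the filter on low counts leaves out, while all 46 members pass it. Their shares, here and for rCD5L in WT mice, are thus over a wider set of genes than the others. Of 18 alternatives, Fdft1, Msmo1 and Lpin1 were called in 17, Elovl5 in 10 and Plin2 in 6, and the direction of each was the same in all 18. Acly was called in 5 of them and Gpam in 1. For rCD5L in WT mice the count moved from 0 to 1 by DESeq2 (against 1.60% of all genes) and to 1 without the filter (0.430%), Dgat2 both times. Between genotypes on rCD5L it moved from 0 to 6 with all 19 kidneys in 1 fit (7.00%) and to 2 without replicates 3 and 4 (3.58%). The median for the rCD5L effect in CD5L KO mice moved from 0.23 to -0.02, and that between genotypes on rCD5L from 0.25 to 0.02, without replicates 3 and 4; on plain totals they were 0.09 and 0.06, beside -0.08 and -0.17 over all genes. Beyond that fewer samples or another spread entered these fits, the cause was not tested.

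Pairing by replicate number was checked by correlating the deviations of same-numbered kidneys from their group means. The correlations ran from -0.19 to 0.17 over the 4 comparisons. They were over 0.1 in 3 of 4 pairs for rCD5L in CD5L KO mice and in 2 of 4 between genotypes on PBS. In each of the other comparisons they were over 0.1 in 0 of 5 pairs. Weak pairing by replicate number is therefore not excluded, and the main fits use none. With the replicate block, 6 members were called between genotypes on PBS, against 12.1% of all genes (Elovl6 added, edgeR adjusted p = 0.0458), and 0 in the other comparisons. The gene length offset, the plain totals and the fits without replicates 3 and 4, the other lists included, were chosen after seeing the data. Depth limits Fdps above all, at 6 to 36 counts per kidney.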
